A study of Homo sapiens with 6 samples.

Results

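In A2058 melanoma cells overexpressing TET2, 2402 of 319166 peak regions had 5-hydroxymethylcytosine (5hmC) and 5-methylcytosine (5mC) peaks at 1 glucose level. These regions had no listed peak of either mark at the other level. They were found by pooling the peaks of 4 deposited lists on chromosomes 1 to 22 and X and merging peaks that overlapped by at least 1 bp. A merged region was kept when its peaks came from exactly the 2 high-glucose lists or exactly the 2 normal-glucose lists. The first set, called high-only here, held 923 regions, or 0.289% of all merged regions. The second set, called normal-only, held 1479 regions, or 0.463%. The regions were selected on the peak calls themselves, that is, on the p- and q-values behind each listed peak, so their numbers, strengths and absence at the other level are a description and not a test.

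5mC is the methyl mark that DNA methyltransferases place on cytosine, in mammals mostly at CG dinucleotides. TET enzymes, of which TET2 is one, oxidise 5mC to 5hmC, which can be oxidised further or diluted by replication. 5hmC is commonly low in melanoma. Each antibody pull-down recovers whole fragments from a population of cells, so a region listed for both marks can hold them on different alleles, in different cells or at neighbouring cytosines.

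A2058 is a human melanoma cell line, and every library came from cells that overexpressed wild-type TET2. The cells were grown in high or normal glucose for 7 days. Antibodies against 5hmC (hMeDIP-seq) and 5mC (MeDIP-seq) enriched the marked fragments, with 1 library per mark and glucose level. 1 input library per glucose level was not analysed here as a sample, and the labels do not say whether the line was a single clone. A single library per group leaves every comparison without replicates or a test, and the 95% Wilson intervals below cover counting only. Positions are on hg19. Genes and sequences of these regions were not analysed here.

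The summit of each peak could be turned back into a number of fragments. For at least 99.998% of peaks in each list, the authors' fold and p-value fitted a whole number of fragments at the summit and an expected number from background. The commonest expected number was 3.03 fragments for 5hmC in high and 2.64 in normal glucose, and 0.737 and 0.615 for 5mC. The smallest summits listed held 9 and 8 fragments for 5hmC and 4 in each 5mC list. The 5mC calls therefore rest on fewer fragments than the 5hmC calls, and within each mark the high-glucose library had the larger background.

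The normal-only set was the larger, and the ratio of high-only to normal-only regions was 0.624, with an interval of 0.575 to 0.678. This order held for the full lists. It turned over when weak peaks were dropped from the lists as deposited. The ratio was then 1.15 at a -log10 p threshold of 7 and 1.19 at 10. The high-glucose lists had the higher median -log10 p, so a fixed threshold was not an equal demand on the levels. When backgrounds were matched first the ratio was 0.420 and 0.406. That setting scaled down only the high-glucose lists, which by itself lowers the ratio. Taken singly, the marks leaned opposite ways. 5hmC was listed at high glucose only in 45171 regions and at normal glucose only in 63412 (ratio 0.712). 5mC was listed at high glucose only in 27677 regions and at normal glucose only in 19205 (ratio 1.44). In the full lists the pairs of marks were thus more numerous in normal glucose, as 5hmC was.

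The share of these regions that had their partner mark at the same level depended on which mark was counted. Of the 45171 regions with 5hmC in high glucose only, 923 had 5mC in high glucose only, or 2.04% (1.92 to 2.18), and 454 had 5mC in normal glucose only, or 1.01% (0.917 to 1.10). These 454 were 0.142% of all merged regions. Of the 63412 with 5hmC in normal glucose only, 1479 had 5mC in normal glucose only, or 2.33% (2.22 to 2.45), and 1413 had 5mC in high glucose only, or 2.23% (2.12 to 2.35). These 1413 were 0.443% of all merged regions. High-glucose 5hmC thus met same-level 5mC more often than opposite-level 5mC, while for normal-glucose 5hmC the 2 shares had overlapping intervals. Seen from 5mC, the same counts of pairs were set against other totals. 5mC was listed at high glucose only in more regions than at normal glucose only, and 5hmC in fewer, which tilts these shares. They were not adjusted for these totals, so a preference of a mark or level can be neither read from them nor excluded. Of the 19205 regions with 5mC in normal glucose only, 7.70% (7.33 to 8.09) had 5hmC at the same level alone and 2.36% (2.16 to 2.59) at the opposite level alone. Of the 27677 with 5mC in high glucose only, 3.33% (3.13 to 3.55) had it at the same level alone and 5.11% (4.85 to 5.37) at the opposite level alone. In every one of these 4 sets the commonest state was no peak of the other mark at either level, from 73.3% to 91.3% of regions.

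**Figure D1:**
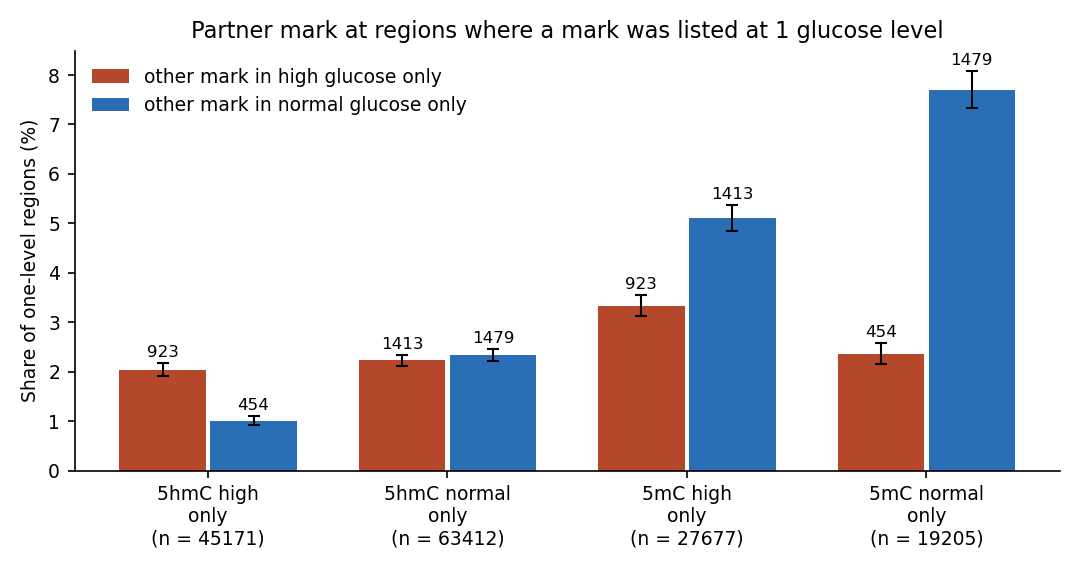
Bars give the share (%) of regions, among those where 1 mark was listed at 1 glucose level only, whose other mark was listed in high glucose only (red) or in normal glucose only (blue). Lines are 95% Wilson intervals and the number above each bar is the count of regions. The red bar at 5hmC high and at 5mC high is the same 923 regions, and the blue bar at 5hmC normal and at 5mC normal the same 1479.

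Regions of both sets were weak in both marks. In the high-only set the 5hmC summit held 9 to 84 fragments with a median of 17, and the 5mC summit 4 to 30 with a median of 9. The summit of 84 had the highest expected 5hmC number of that set, 58.3, and its lowest 5hmC fold, 1.43. In the normal-only set the 5hmC summit held 8 to 44 fragments with a median of 15, and the 5mC summit 4 to 20 with a median of 8. Regions with both marks in all 4 lists, 23635 or 7.41% of all merged regions, had medians of 26 and 21 fragments in the high-glucose and 24 and 18 in the normal-glucose lists, for 5hmC and 5mC. The median fold enrichment of the high-only set was 3.68 for 5hmC and 5.10 for 5mC, and that of the normal-only set 3.67 and 4.95. Folds cannot be compared between the marks, because the libraries differ in depth.

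Ranked within their own list by -log10 p, the 5hmC peaks of the high-only set had a median percentile of 23.1 and the 5mC peaks one of 26.7. In the normal-only set the medians were 26.0 for 5hmC and 21.8 for 5mC. Only 14 high-only regions, or 1.52%, and 38 normal-only regions, or 2.57%, had both marks in the upper part of their lists, at percentile 50 or above. At percentile 75 or above for both marks there was no high-only region and 1 normal-only region. How far the strengths of the marks moved together depended on the measure. Across the 923 high-only regions the Spearman rho of their -log10 p was 0.0194 and across the 1479 normal-only regions 0.0466, each over regions of the same pair of libraries. It was 0.0689 and 0.109 in regions with both marks in all lists. For summit fragments, which are not set against the expected number, rho was 0.209 in the high-only and 0.191 in the normal-only set. Only peaks past the thresholds of the lists enter these values.

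The weakness was shared with other regions listed at 1 level. 5hmC in high glucose alone, with no 5mC in either list, had a median of 18 fragments over 41224 regions, and 5hmC in normal glucose alone 16 over 53967. 5mC in high glucose alone had a median of 8 over 21139 regions and 5mC in normal glucose alone 7 over 14086. The median 5hmC and 5mC summits of the high-only and normal-only sets thus lay within 1 fragment of these medians.

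**Figure D2:**
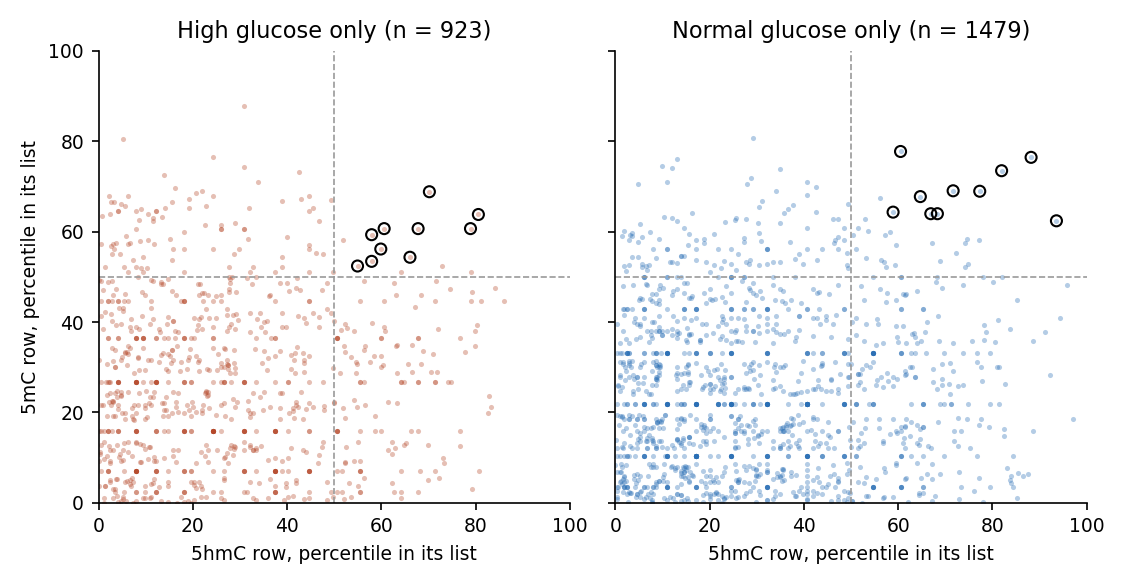
Each point is a region with both marks in high glucose only (left, 923 regions) or normal glucose only (right, 1479 regions). The axes give the percentile of its 5hmC and 5mC peak in its own list by -log10 p. Dashed lines mark percentile 50 and circles the 10 regions with the highest lower percentile in each set. Points crowd the lower left, and the rows of points reflect whole numbers of 5mC fragments.

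A peak is absent from a list when it falls under that list's threshold, which need not mean that no fragments were there. For each peak the summit count was therefore multiplied by the ratio of the other library's background to its own, and set against the smallest count that library would have listed at the same scaled expected number. Under this scaling, which assumes equal enrichment at both levels, 886 of 923 high-only regions, or 96.0%, and 1467 of 1479 normal-only regions, or 99.2%, would have reached the threshold in both marks. Each member had already passed its own list's threshold, so these high shares were largely fixed by the selection. Whether library depth accounts for the absent peaks was thus not tested. Few regions would have passed the other list's threshold widely in both marks. Both scaled summits were at least 2 times the threshold in 31 high-only regions, or 3.36% (2.38 to 4.73), and in 165 normal-only regions, or 11.2% (9.65 to 12.9). The scaling lowered every high-only count and raised every normal-only count. That by itself lowers the first share and raises the second, and its part in their gap was not tested. The high-only threshold for 5mC in the normal-glucose list had a median of 4 fragments against a scaled median of 7.51, and that of 5hmC a median of 9 against 14.8. The spread of such counts between repeated libraries was not measured.

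The regions were short and held 1 peak of each mark. This was so in 922 of 923 high-only and in 1471 of 1479 normal-only regions, and the rest held 2 5hmC peaks and 1 5mC peak. The median width was 587 bp in the high-only and 596 bp in the normal-only set. It was 1454 bp where both marks were in all lists. The widest high-only region, on chromosome 7 from 139483030 to 139484697, was 1668 bp wide, and next came chromosome 17 from 2627336 to 2628970 and chromosome 19 from 5771661 to 5773274. The widest normal-only region, on chromosome 20 from 57592072 to 57594725, was 2654 bp wide, and its 5mC peak of 6 fragments lay inside a 5hmC peak of 33. It was followed by chromosome 6 from 36652975 to 36654973 and chromosome 14 from 69409191 to 69411158.

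Within a region the marks lay close together but rarely coincided. The peaks overlapped by a median of 287 bp in the high-only and 267 bp in the normal-only set, and were staggered, neither inside the other, in 76.9% and 72.3% of regions. The summits were a median of 141 and 142 bp apart. They lay within 100 bp of each other in 353 high-only regions, or 38.2% (35.2 to 41.4), and in 554 normal-only regions, or 37.5% (35.0 to 40.0). Where the marks were listed at opposite levels, this share was 37.1% (34.6 to 39.6) of 1413 regions with 5hmC in normal and 5mC in high glucose only. It was 41.4% (37.0 to 46.0) of 454 regions with 5hmC in high and 5mC in normal glucose only. The summit spacing of same-level pairs was therefore not set apart from that of opposite-level pairs. The arrangement that differed most between the 2 sets was a 5mC peak inside a 5hmC peak, found in 9.97% (8.20 to 12.1) of high-only and 14.8% (13.1 to 16.7) of normal-only regions. The shortest 5hmC peak was 292 bp in high and 259 bp in normal glucose, and its part in this difference was not tested.

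The strongest regions were ranked by the lower of the percentiles of their marks. The leading high-only region lay on chromosome 3 from 39143983 to 39144394. Its 5hmC summit held 32 fragments where 5.83 were expected, a fold of 4.83 with a -log10 p of 14.1. Its 5mC summit held 19 where 1.36 were expected, a fold of 8.47 with a -log10 p of 16.3. The summits fell on the same base, and the nearest normal-glucose peaks were 917 bp away for 5hmC and 1659 bp away for 5mC. Next came chromosome 15 from 99489604 to 99490181, with 32 fragments of 5hmC and 16 of 5mC. The third lay on chromosome 19 from 53936092 to 53936523, with 23 and 13 fragments, and its nearest normal-glucose peak of either mark was 36236 bp away.

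Of the 10 leading high-only regions 4 lay on chromosome 15 and 3 on chromosome 19. Among all 923 high-only regions 32 lay on chromosome 15 and 58 on chromosome 19, and a leaning of the 10 was not tested. On chromosome 15 the leading ones were, beside the second, the regions from 102520569 to 102521254, from 81362125 to 81362663 and from 74524057 to 74524777. The first of these had 22 fragments of 5hmC and 13 of 5mC, and the normal-glucose peaks nearest to it were 174873 bp away for 5hmC and 261923 bp for 5mC. That was the greatest distance of any high-only region. This region held the outermost listed peak of its chromosome, so no listed peak lay beyond it. On chromosome 19 the regions from 43711051 to 43711402 and from 55827544 to 55827933 ranked seventh and ninth. The first of them, with 21 and 12 fragments, had its nearest normal-glucose peak 94034 bp away. The list was completed by chromosome 17 from 66371736 to 66372122, where the summits were 1 bp apart, and chromosome 7 from 105152895 to 105153554. Across the 10, 5hmC summits held 21 to 32 and 5mC summits 12 to 19 fragments.

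The leading normal-only region lay on chromosome 7 from 129794351 to 129795403. Its 5hmC summit held 28 fragments where 2.82 were expected, a fold of 7.60 with a -log10 p of 19.1. Its 5mC summit held 18 where 0.698 were expected, a fold of 11.2 with a -log10 p of 20.3. It was the region with both marks above percentile 75, at 88.2 and 76.4. The nearest high-glucose peaks were 1398 bp away for 5hmC and 633 bp for 5mC. Chromosome 1 from 10426283 to 10427052 followed with 24 and 16 fragments and summits 19 bp apart, and chromosome 17 from 55662965 to 55663488 with 24 and 17.

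Of the 10 leading normal-only regions 4 lay on chromosome 17. Among all 1479 normal-only regions 112 lay there, and a leaning of the 10 was not tested. The other 3 leading regions of that chromosome were those from 78595228 to 78595871, from 75437525 to 75438451 and from 71196483 to 71197816. The last of these had the most 5hmC of the 10, with 35 fragments, and 14 of 5mC, but its summits were 891 bp apart. The remaining ones lay on chromosome 16 (87499373 to 87500051), chromosome 9 (94519471 to 94519942) and chromosome 12 (122951234 to 122952231 and 27814124 to 27814683). Across the 10, 5hmC summits held 18 to 35 and 5mC summits 14 to 18 fragments. The nearest high-glucose peak of either mark was 215 to 2788 bp away. Among the 10 leading high-only regions this distance was above 2788 bp in the 3 isolated ones already named on chromosomes 15 and 19, and 244 bp in the region on chromosome 15 from 74524057.

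The regions holding the strongest peak of either mark, ranked by -log10 p and not by fragments, had a weaker partner there. The strongest 5mC peak of the high-only set, on the X chromosome, had 30 fragments and a fold of 17.8, at percentile 87.9, in a region from 71767665 to 71768641. Its 5hmC peak there had 16 fragments and stood at percentile 30.8. The strongest 5hmC peak of that set, on chromosome 19 from 36567955 to 36568452, had 31 fragments, at percentile 86.0, beside 10 fragments of 5mC at percentile 44.6. In the normal-only set the strongest 5hmC peak, on chromosome 4 from 3232770 to 3233335, stood at percentile 97.1 with 44 fragments, and its 5mC partner at 18.4 with 8. The strongest 5mC peak of that set, on chromosome 19 from 3924971 to 3925737, had 20 fragments at percentile 80.7, and its 5hmC partner 14 fragments at percentile 29.1. These 4 regions were named after their values were seen.

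Most of these regions had a peak of the other glucose level nearby, in lists that were dense. The normal-glucose lists held 209999 5hmC and 91870 5mC peaks, and the high-glucose lists 191314 and 100220. The shares below were not computed for all merged regions, so they cannot be read as a trait of these sets. The nearest peak of either mark at the other level was a median of 1250 bp from high-only and 1271 bp from normal-only regions. Such a peak lay within 5000 bp of 777 high-only regions, or 84.2% (81.7 to 86.4), and of 1280 normal-only regions, or 86.5% (84.7 to 88.2). For 5hmC alone the shares were 74.2% and 74.9%, and for 5mC alone 58.4% and 62.5%. Within 100 bp there was a peak of the other level in 18 high-only and 27 normal-only regions, where a small shift of the called edges would have ended membership. The region farthest from any high-glucose peak, on chromosome 21 from 17455703 to 17456158, was 65835 bp away, with 13 fragments of 5hmC and 10 of 5mC.

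**Figure D3:**
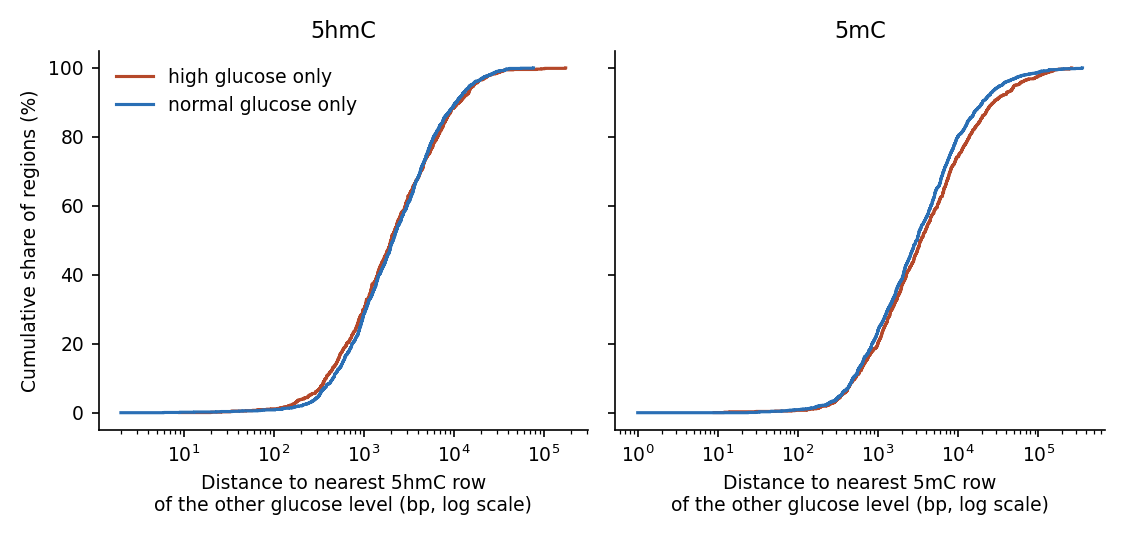
Lines give the cumulative share (%) of high-only (red, 923) and normal-only (blue, 1479) regions by the distance in bp, on a log axis, to the nearest 5hmC peak (left) or 5mC peak (right) of the other glucose level. The curves of the sets run close together for 5hmC. For 5mC, 74.2% of high-only and 80.2% of normal-only regions had such a peak within 10000 bp.

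High-only and normal-only regions seldom lay next to each other. Of the 923 high-only regions, 6 had a normal-only region within 1000 bp and 2 had another high-only region as near. The closest such pair lay on chromosome 17, where the high-only region from 78766494 to 78766947 was 92 bp from the normal-only region from 78767040 to 78767708. Their summits held 11 and 7 fragments in high and 11 and 8 in normal glucose, for 5hmC and 5mC. Another pair lay on the same chromosome, from 79135021 to 79135746 in high and from 79134044 to 79134688 in normal glucose, 332 bp apart. The others lay on chromosome 7 (high-only from 98968787), chromosome 11 (68214934), chromosome 13 (74000002) and chromosome 22 (45109665), 296 to 736 bp from their partners. At these 6 places both marks were listed at both levels within 736 bp, by peaks that did not overlap between the levels.

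The nearest region with both marks in all lists was a median of 18325 bp from high-only and 12616 bp from normal-only regions. Such a region lay within 5000 bp of 25.8% (23.1 to 28.7) of high-only and 32.0% (29.7 to 34.4) of normal-only regions. Regions with 1 mark at 1 level and no other peak had one as close in 9.26% (5hmC, high), 15.0% (5hmC, normal), 15.9% (5mC, high) and 16.2% (5mC, normal). Pairs of marks at opposite levels stood at 31.4% (29.0 to 33.8) for 5hmC in normal with 5mC in high glucose, and at 24.0% (20.3 to 28.2) for the converse. The shares for pairs were thus above those for single marks, whichever levels were paired. These neighbour shares were not computed for all merged regions. The outermost listed peak of the chromosome lay within 5 Mb of 15.6% (13.4 to 18.1) of high-only and 18.3% (16.4 to 20.3) of normal-only regions. The share was 20.03% and 18.9% for the pairs of marks at opposite levels, in the order above, with intervals that overlapped those of the normal-only set. It was 8.33% to 13.4% for single marks at 1 level, 13.1% for all merged regions and 30.4% for regions with both marks in all lists.

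By chromosome, normal-only regions outnumbered high-only ones on 21 of 23. Chromosome 21 had 13 of each, and the X chromosome had 20 high-only and 14 normal-only regions. Among the X-linked members the share of high-only was 58.8%, with an interval of 42.2 to 73.6, against 38.4% (36.5 to 40.4) in all. The X chromosome also had the highest high-glucose share of regions with 5hmC at 1 level, at 47.8% against 41.6% in all, and of those with 5mC at 1 level, at 67.1% against 59.0%. The order on X rests on 34 regions. The lowest ratios of high-only to normal-only were on chromosome 16, with 43 and 96 regions, chromosome 20, with 26 and 55, and chromosome 22, with 25 and 51.

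Per 1000 merged regions, high-only regions were densest on chromosomes 17, at 4.56, and 19, at 4.51. Normal-only regions were densest on chromosomes 22, at 7.78, 16, at 7.38, and 17, at 7.10. High-only regions were sparsest on chromosomes 13 and 4, at 2.00 and 2.03, and normal-only regions on X and chromosome 4, at 1.73 and 2.90.

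**Figure D4:**
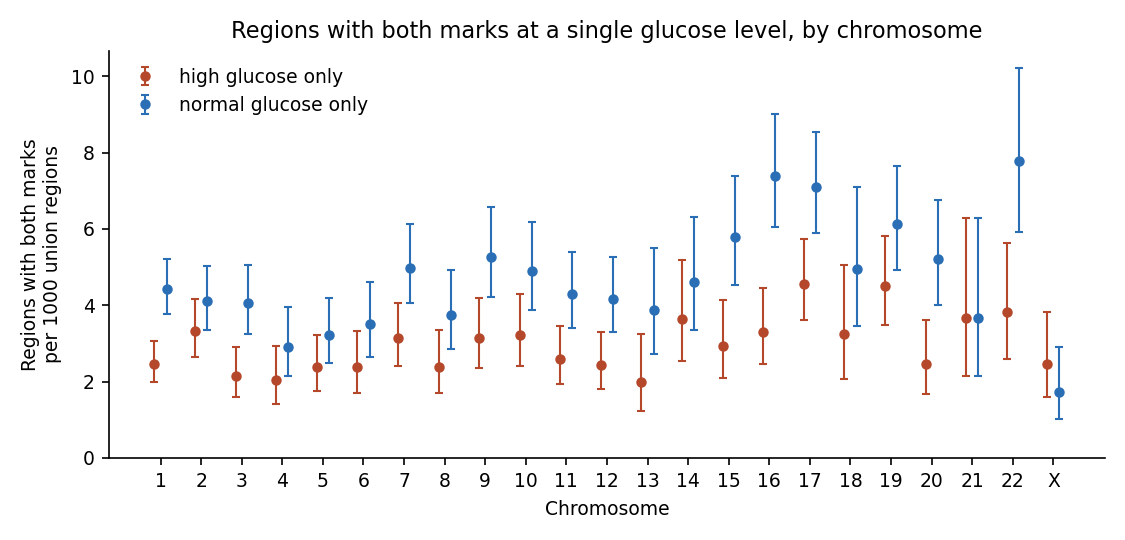
Points give the number of high-only (red) and normal-only (blue) regions per 1000 merged regions of each chromosome, and lines the 95% Wilson intervals, which cover counting only. Blue lies above red on 21 of 23 chromosomes, level with it on chromosome 21 and below it on X, and is highest on chromosome 22, at 7.78.

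The regions were spread thinly over the genome. Of 2875 windows of 1 Mb with a merged region, 662 held a high-only and 850 a normal-only region, 373 held both and 1736 neither. The fullest window for high-only regions was chromosome 2 from 27000001 to 28000000, with 7 of them and 2 normal-only regions among 238 merged regions. It was followed by chromosome 17 from 40000001, 74000001 and 1000001 and chromosome 2 from 10000001, with 5 each. The fullest for normal-only regions was chromosome 22 from 38000001 to 39000000, with 8 and 1 high-only among 335. Chromosome 7 from 2000001 and chromosome 16 from 89000001 held 7 each, and chromosome 9 from 33000001 and chromosome 7 from 148000001 held 6 each. At least 5 normal-only regions were found in 25 windows and at least 5 high-only regions in 5.

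Windows were also split into 5 equal groups by their number of regions with both marks in all lists, which itself comes from the same lists. The group richest in them, with 12 to 125 per window, held 524 of the 923 high-only regions, or 56.8%, and 927 of the 1479 normal-only regions, or 62.7%. Per 1000 merged regions, high-only regions went from 0.896 in the poorest group to 3.95 in the richest, and normal-only regions from 1.23 to 6.99. From the poorest group to the richest, the ratio of the sets was 0.727, 0.815, 0.750, 0.695 and 0.565, so that it was highest in the second group. The poorest group held 24 high-only and 33 normal-only regions, and the second group 44 and 54. Both groups included windows with 0 regions with both marks in all lists, so the cut between them divided tied windows.

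The order of the sets depended on the -log10 p asked of the peaks, which was not an equal demand on the lists. The median -log10 p of the 5hmC lists was 9.99 in high and 8.70 in normal glucose. For the 5mC lists it was 10.5 and 10.2. When peaks under a -log10 p of 5 were dropped from all lists and the regions rebuilt, there were 806 high-only and 1255 normal-only regions. At 7 there were 807 and 702, a ratio of 1.15, and at 10 there were 489 and 410, a ratio of 1.19. A region whose partner peak at the other level falls under the threshold becomes a member in this setting, so the members are not those described above. At the commonest expected number a 5mC summit of 8 fragments had a -log10 p of 7.04 in high and 7.70 in normal glucose, and a summit of 7 fragments had 5.95 and 6.53. At that expected number a threshold of 7 asked for 8 fragments in either 5mC list. A threshold of 10 asked for 11 fragments in high glucose (-log10 p 10.6) and 10 in normal glucose (10.2). The part of these steps, and of the unlike medians, in the turn of the order was not tested.

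In another setting the library of larger background was first scaled down to its counterpart. For both marks this was the high-glucose library. Only high-glucose peaks could lose strength, so a lower ratio was built into the setting and it does not check the order. The order did not turn. High-only and normal-only regions then numbered 685 and 1450 at a threshold of 5, 432 and 1029 at 7, and 252 and 620 at 10. The ratios were 0.472, 0.420 and 0.406. Among the members as first defined, both marks reached a -log10 p of 10 in 17 high-only and 25 normal-only regions.

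**Figure D5:**
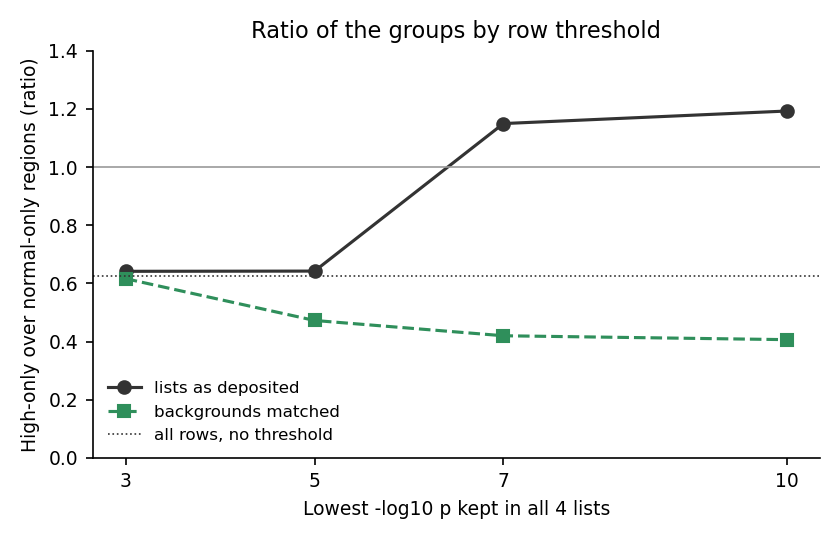
The vertical axis gives the ratio of high-only to normal-only regions when only peaks above the -log10 p on the horizontal axis were kept in all 4 lists. Circles use the lists as deposited and squares the lists with matched backgrounds. As deposited, the high-glucose lists had the higher median -log10 p, so a threshold was not an equal demand on the levels. Matching scaled down only the high-glucose lists, which by itself lowers the ratio. The dotted line is 0.624, the ratio with all peaks. Circles pass above 1 at thresholds of 7 and 10, while squares stay between 0.406 and 0.616.

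At the edge of the rule, the marks overlapped by 1 bp in 1 high-only and 3 normal-only regions, and by at most 50 bp in 45 and 80. Just outside it, a 5hmC peak and a 5mC peak of the same single level lay at most 10 bp apart without touching at 14 places in high and 18 in normal glucose, and at most 50 bp apart at 46 and 67. Losing a region through a grazing peak of the other level was rare. Of the high-glucose pairs of overlapping marks kept out by 1 other-level peak alone, 3817 were kept out by normal-glucose 5hmC and 2415 by normal-glucose 5mC. That peak overlapped the pair by at most 50 bp in 3 and 1 of them. For the normal-glucose pairs, 2921 were kept out by high-glucose 5hmC, 2 of them by at most 50 bp, and 6131 by high-glucose 5mC, 4 of them by at most 50 bp.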

How the data were processed

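The members and their summaries were chosen with earlier results of these data known. The authors deposited 1 narrow peak list per library, whose columns hold a display score (not used), the fold enrichment as a ratio, p-value and q-value as -log10, and other values such as the summit offset. Per the submitters' processing notes, build hg19 was used with Bowtie 1.0.0, bedtools 2.17.0, CASAVA 1.8.2 and SAMtools 0.1.18, whose roles are not stated. The peak caller is not given in the sources used here. Peak names use Ctrl for high and Low for normal glucose, and the labels were followed. The highest q-value was 0.0498.

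The 80, 82, 14 and 15 peaks outside chromosomes 1 to 22 and X were left out of the high- and normal-glucose 5hmC and 5mC lists. Peaks were merged in pandas 2.3.3 and NumPy 2.4.6 (Python 3.11.15). A merge with bedtools 2.31.1 also found 319166, 923 and 1479 regions. Where a region held 2 peaks of a mark, the one with the higher -log10 p stands for it. Summit fragments t and expected number L were solved from fold = (t + 1)/(L + 1) and the Poisson probability of more than t (SciPy 1.17.1), with a misfit under 1% of the step to the next whole number. The merge and this search were tested on simulated data. Named regions were the 10 per set with the highest lower percentile, the 3 widest, the isolated and strongest ones, and the 5 fullest windows. The isolated and strongest ones and the opposite pairs were named after their values were seen. Alternatives were other thresholds, equal numbers of peaks, autosomes, merging distance, overlap of marks, pairs without merging, and, added after the data were seen, thresholds of 5 and 7, matched backgrounds, reaching the other list's threshold, and distance.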

Additional observations from a re-analysis of the deposited data

How the results depend on the processing

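Counts under the settings with a -log10 p from 3, a -log10 q from 2, equal numbers of top peaks, autosomes only, merging within 500 bp, pairs of peaks without merging, and summits that reach the other list's threshold stayed within 1.5 times of 923 high-only and 1479 normal-only regions. The ratio, 0.624, turned over in the lists as deposited at a -log10 p threshold of 7 (1.15, with 702 normal-only regions). It was 1.19 at 10, with 489 and 410 regions, and the cause was not tested. The high-glucose lists had the higher median -log10 p, so a fixed threshold was not an equal demand on the levels. With matched backgrounds the ratio was 0.472 at 5, 0.420 at 7 (432 high-only regions) and 0.406 at 10 (252 and 620). Only the high-glucose lists were scaled down there, which by itself lowers the ratio. It was 0.679 with a -log10 q from 2. Reaching the other list's threshold was largely fixed by the selection, so the counts under that setting do not check the result. Stricter settings left fewer regions by construction. An overlap of 50% of both marks left 518 and 776, both marks at a -log10 p from 10 left 17 and 25 (ratio 0.680), and no other-level peak within 5000 bp left 146 and 199 (ratio 0.734). No paired analysis was possible because each group has 1 library. The low 5mC fragment counts limit what the absence of a peak can show.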
